A study of Mus musculus with 4 samples.

Results

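The 36 genes described here encode the machinery that takes up glucose, splits it in glycolysis, exports lactate, diverts glucose 6-phosphate into the pentose phosphate pathway and answers to low oxygen through HIF. They are a list of names with no measured value in its rule, drawn up with earlier results of these data known, and all 36 were found by NCBI gene number among the 27179 genes of the deposited expression table. RNA was measured in 4 libraries of leukemia-initiating cells (LICs) from a mouse acute myeloid leukemia, of which 2 are labelled WT and the other 2 CD274-null. The leukemia was made by putting the fusion oncogene MLL-AF9 by retrovirus into lineage-negative fetal liver cells, which were then transplanted into lethally irradiated hosts. CD274 (PD-L1) is the surface ligand of the T cell receptor PD-1, and the CD274-null leukemia was started from mice that lack its gene (CD274-/-). Both groups share the oncogene, the C57BL/6 strain, the bone marrow source, the labelled age of 6 weeks and the sort for Mac-1+/c-Kit+ cells. The labels do not say whether the 2 libraries of a group came from separate mice or pools, so the p-values measure only the spread between these samples.

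Glycolysis turns 1 glucose into pyruvate through a chain of enzymes, most of which exist as paralogs with different tissue ranges. Its irreversible steps are those of hexokinase, phosphofructokinase and pyruvate kinase, and phosphofructokinase is driven by fructose 2,6-bisphosphate, which the PFKFB enzymes make and remove. The pentose phosphate pathway branches off after hexokinase to yield NADPH, which phagocytes spend in the oxidative burst, and ribose for nucleotides. HIF is a transcription factor that prolyl hydroxylases mark for destruction while oxygen is present, and many glycolytic genes are among its known targets. Leukemic stem cells live in marrow that is poor in oxygen, which is why these pathways are often examined in them.

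Each library held between 8434018 and 11039877 reads assigned to genes, as recovered from the FPKM values (read counts scaled to transcript length and to library depth). All 36 genes had a mean FPKM of at least 0.5 and were tested with limma on log2(FPKM + 0.5) among 13230 genes. A gene is termed called where the unadjusted p was under 0.01 and the fold change above 1.5. Cd274 itself was at 2.80 and 0.945 FPKM in the WT libraries and 1.43 and 2.29 FPKM in the CD274-null libraries, so the direction of every comparison rests on the labels, and WT and CD274-null mean the libraries so labelled. Of the markers of the sort, Itgam (the Mac-1 alpha chain) lay between 100 and 174 FPKM, and Kit was at 6.59 FPKM in WT replicate 1 against 16.2 to 19.5 FPKM in the other 3 libraries. Of 10 genes listed for the sort and the MLL-AF9 program, Hoxa9 lay between 71.3 and 75.8 FPKM and Cd34 ranged from 4.32 to 31.7 FPKM. Mpo, a granule enzyme of myeloid progenitors, was the only 1 called, at 444 and 403 FPKM in WT against 1430 and 925 FPKM in CD274-null LICs. The granule enzymes Elane and Ctsg of the same list overlapped between groups. Elane was at 3820 and 2780 FPKM in WT against 4670 and 3410 FPKM, and Ctsg at 1170 and 1710 against 1320 and 507 FPKM. Ptprc (limma p of 0.0300) and Hoxa10 (limma p of 0.0708) were lower in both CD274-null libraries. The summed FPKM of 7 mature neutrophil markers was 10800 and 1810 for replicates 1 and 2 of WT, and 4840 and 8800 for those of CD274-null LICs. All 7 of these markers were detected in every library, and both WT libraries mark the ends of the range of the sum. In bulk RNA, fewer cells of a type and less RNA per cell cannot be told apart.

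The regulatory sequence upstream of these genes is shown first, since many of them are known HIF targets. HIF binds the core letters ACGTG or GCGTG, and these were searched on both strands in the 250 bases before each start in the RefSeq promoter table (GRCm38.p6). Of the 36 genes, 35 were in that table, with 50 starts, and Slc2a3 was not matched. At least 1 match lay before 41 of the 50 starts (82.0%), against 12679 of 32851 starts in the whole table (38.6%), and starts of 1 gene can overlap. The whole table covers 27025 genes, expressed in these libraries or not, while all members were expressed. Both cores contain the letters CG, and the compared starts were not matched for expression or base composition. Not every listed start is the outer start of its gene: 22 of the 50 windows lay inside the listed gene (18 with a match), and 10 starts were not found in a GENCODE transcript (9 with a match). The core ACGTG overlaps the E-box CACGTG, which read from both strands counts as 2 matches and was found before 12% of member starts and 6.02% of all starts. At least 3 matches stood before 9 member starts (18.0%) and before 6.58% of all starts. The starts with the most matches belonged to Ldha (lactate dehydrogenase A) and Bnip3 (a mitophagy receptor), with 5 each. The windows of these genes are printed with those of Pfkfb4, Egln3 and Vegfa, known HIF targets that were higher in both CD274-null libraries, each 5′ to 3′ on the strand of its gene with the matches in capitals.
Ldha (chr7:46845554-46845803, plus strand): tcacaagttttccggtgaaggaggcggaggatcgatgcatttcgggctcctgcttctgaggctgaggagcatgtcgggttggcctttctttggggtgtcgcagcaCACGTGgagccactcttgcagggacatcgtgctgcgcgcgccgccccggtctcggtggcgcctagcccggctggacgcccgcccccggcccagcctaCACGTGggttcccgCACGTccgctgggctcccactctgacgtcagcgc
Bnip3 (chr7:138909507-138909756, minus strand): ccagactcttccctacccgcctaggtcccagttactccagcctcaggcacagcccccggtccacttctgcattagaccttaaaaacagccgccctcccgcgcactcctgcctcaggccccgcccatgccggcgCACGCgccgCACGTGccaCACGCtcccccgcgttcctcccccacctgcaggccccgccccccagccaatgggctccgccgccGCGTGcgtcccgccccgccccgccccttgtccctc
Pfkfb4 (chr9:108991652-108991901, plus strand): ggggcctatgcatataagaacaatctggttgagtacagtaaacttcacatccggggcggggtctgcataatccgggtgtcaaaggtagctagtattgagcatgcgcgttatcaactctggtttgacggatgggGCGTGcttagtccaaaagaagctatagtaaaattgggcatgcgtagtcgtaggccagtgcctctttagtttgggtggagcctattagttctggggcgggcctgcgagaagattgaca
Egln3 (chr12:54203875-54204124, minus strand): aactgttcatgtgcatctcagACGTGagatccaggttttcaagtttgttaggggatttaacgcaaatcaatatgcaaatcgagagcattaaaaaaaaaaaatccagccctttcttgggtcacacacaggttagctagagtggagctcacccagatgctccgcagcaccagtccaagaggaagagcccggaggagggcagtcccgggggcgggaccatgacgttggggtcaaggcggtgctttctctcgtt
Vegfa (chr17:46032378-46032627, minus strand): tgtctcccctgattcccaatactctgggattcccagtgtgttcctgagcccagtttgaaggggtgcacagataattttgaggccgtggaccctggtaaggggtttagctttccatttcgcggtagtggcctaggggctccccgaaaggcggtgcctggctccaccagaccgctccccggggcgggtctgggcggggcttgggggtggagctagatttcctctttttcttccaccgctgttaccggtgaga

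In these windows the Pfkfb4 start had 1 match, between 113 and 117 bases before the start, and the Egln3 start had 1, between 225 and 229 bases before it. The window printed for Vegfa, before its outer start, had 0 matches, and that of a listed start inside the gene, not found in a GENCODE transcript, had 2. The windows of Ldha and Pfkfb4 lay inside the listed gene, and the starts of Ldha and Egln3 were among those not found in a GENCODE transcript. Windows were not printed for every member that differed between groups. Hk2, higher in both CD274-null libraries, and Pgk1, lower in both, had 2 matches each. Matches were not compared with fold changes across the members. A match of these letters describes the sequence and does not show that HIF was bound there.

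Of the 36 genes, 1 was called in CD274-null against WT LICs, the bifunctional enzyme gene Pfkfb4, which is 2.78% of the members against 480 of 13230 genes (3.63%) overall. No member passed an adjusted p of 0.05 in limma, and 10 genes (0.0756%) did so in the whole table. With an unadjusted limma p under 0.05, 6 members were higher in CD274-null LICs (Hk2, Hk3, Pfkfb4, Rpia, Egln3 and Vegfa), which is 16.7% against 8.04% of all genes. On the same rule 3 members were lower (Pfkp, Pgk1 and Pkm), which is 8.33% against 5.7% of all genes. Both CD274-null values stood above both WT values in 10 members (27.8% against 25.6% of all genes) and below both in 6 (16.7% against 21.8%), so these shares lay near or under the background. The median log2 fold change was -0.03 over the members and 0.01 over all tested genes, with 16 members above 0 and 20 below. With 2 libraries against 2, an exact permutation test of a single gene cannot give a two-sided p below 0.33.

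**Figure D1:**
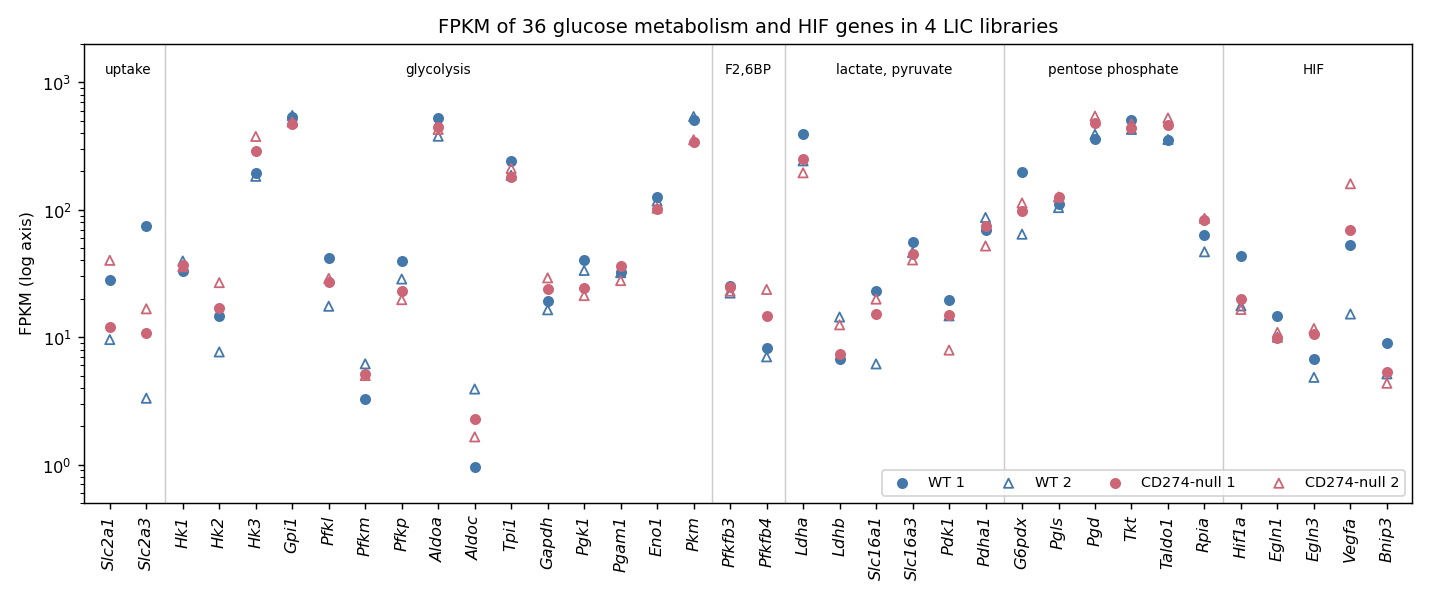
FPKM of the 36 genes on a log axis, ordered by step from glucose uptake to HIF, with 1 point for each library (blue WT, red CD274-null, filled for replicate 1 and open for replicate 2). Levels span from 0.965 FPKM (Aldoc) to 549 FPKM (Gpi1), and the blue points of Slc2a3 lie 22.4-fold apart.

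**Figure D2:**
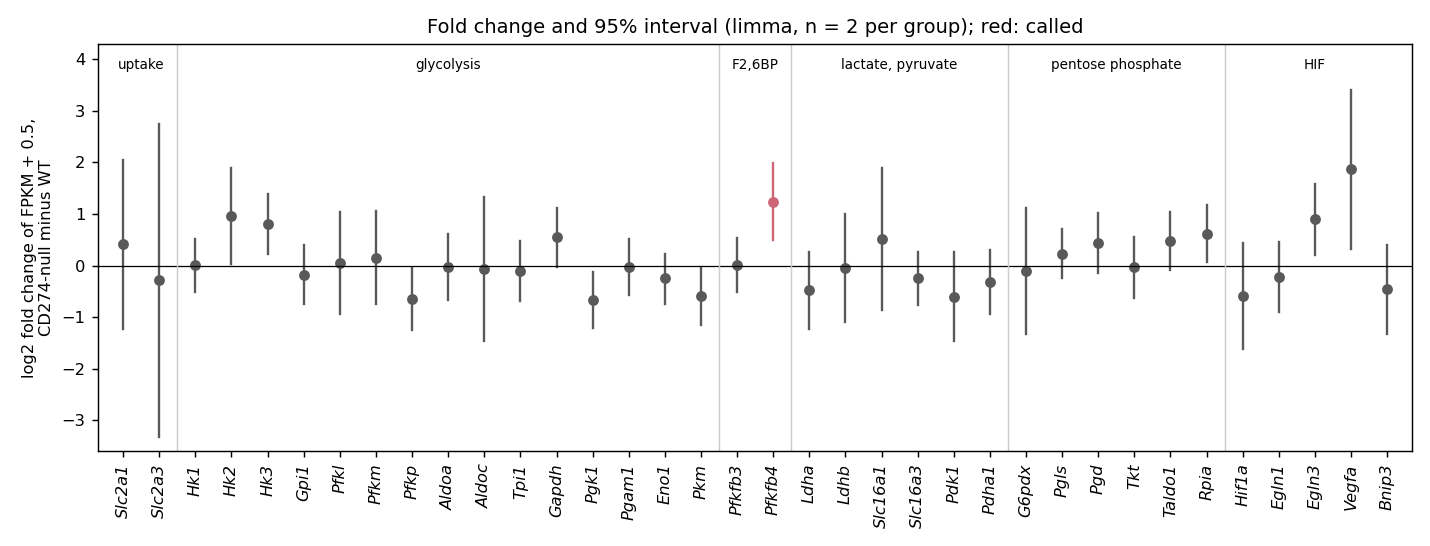
Log2 fold change of FPKM + 0.5, CD274-null minus WT, of each gene with its 95% interval from limma (n = 2 per group). The called gene, Pfkfb4, is red, and the intervals of 27 of the 36 genes include 0.

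Glucose enters through the facilitative transporters GLUT1 (Slc2a1) and GLUT3 (Slc2a3), and both varied more within a group than between groups. Slc2a3 was at 74.5 and 3.32 FPKM in the WT libraries and at 10.7 and 16.7 FPKM in the CD274-null libraries. WT replicate 1 was the highest and WT replicate 2 the lowest of the 4, so both CD274-null values lay between them. Slc2a1 was at 28.2 and 9.58 FPKM in WT and at 12 and 40.1 FPKM in CD274-null LICs, where the groups overlapped and CD274-null replicate 2 was highest. The log2 fold changes were 0.41 ± 0.68 (SE) for Slc2a1 and -0.29 ± 1.25 (SE) for Slc2a3, n = 2 per group. GLUT3 made up 72.5% of the summed FPKM of the pair in WT replicate 1 and 25.8% in WT replicate 2, with 47.0% and 29.3% in the CD274-null libraries. The value of Slc2a3 turned on single libraries. Without WT replicate 1 its log2 fold change was 1.86, and without WT replicate 2 it was -2.44, and the gene was called each time.

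Hexokinase, which traps glucose as glucose 6-phosphate, was read mostly from Hk3, the form typical of myeloid cells. Hk3 (chr13:55005985-55021475) was at 196 and 183 FPKM in WT and at 290.0 and 376 FPKM in CD274-null LICs. Both CD274-null libraries stood above both WT libraries, by a log2 fold change of 0.80 ± 0.24 (SE, n = 2 per group; limma p of 0.0143, adjusted p = 0.295). Hk2, the inducible form that binds mitochondria, was at 14.7 and 7.66 FPKM in WT and at 16.8 and 26.8 FPKM in CD274-null LICs. The groups did not overlap, although WT replicate 1 and CD274-null replicate 1 were close, and the log2 fold change was 0.97 ± 0.39 (SE; limma p of 0.0446, adjusted p = 0.353). It was 1.41 (limma p of 0.0111) without WT replicate 1 and 0.52 (0.199) without WT replicate 2. Hk1, the form that most tissues express, was at 33.1 and 39.6 FPKM in WT and 37.0 and 35.7 FPKM in CD274-null LICs, so the groups overlapped. Its log2 fold change of 0.01 had a 95% interval from -0.51 to 0.52, which still admits a moderate change either way. Hk3 held 80.4% and 79.5% of the hexokinase FPKM in WT and 84.3% and 85.8% in CD274-null LICs, while Hk1 held 13.5% and 17.2% against 10.8% and 8.13%. The highest hexokinase share of Hk3 in WT was thus below its lowest in CD274-null LICs.

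Pfkfb4 (chr9:108988272-109032236) encodes an enzyme that both makes and removes fructose 2,6-bisphosphate. It was at 8.23 and 7.01 FPKM in the WT libraries and at 14.7 and 23.7 FPKM in CD274-null LICs. These values rest on 160, 120, 219 and 396 recovered reads in that order. All CD274-null values were above all WT values, and CD274-null replicate 2 was the highest. Its log2 fold change was 1.24 ± 0.31 (SE, n = 2 per group), with a limma p of 0.00609 and an adjusted p of 0.270. The call was lost without any 1 library and under 8 of 12 other settings, where the log2 fold change was 1.10 to 1.29 and the limma p 0.0101 to 0.0708. Without WT replicate 1, WT replicate 2, CD274-null replicate 1 or CD274-null replicate 2 the limma p was 0.0144, 0.0257, 0.0144 or 0.0715. Its paralog Pfkfb3, whose enzyme strongly favors synthesis, was at 25.3 and 22.2 FPKM in WT and 24.7 and 23.0 FPKM in CD274-null LICs, with no separation of the groups (log2 fold change 0.01, 95% interval -0.51 to 0.53). Pfkfb4 held 24.5% and 24% of the FPKM of the pair in WT against 37.4% and 50.7% in CD274-null LICs.

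Phosphofructokinase itself was carried by the liver type (Pfkl) and the platelet type (Pfkp), and the muscle type (Pfkm), at 3.26 to 6.18 FPKM, was the least abundant in all 4 libraries. Pfkp (chr13:6579874-6649060) was at 39.9 and 28.6 FPKM in WT and at 23.1 and 19.7 FPKM in CD274-null LICs. The CD274-null values lay below both WT values, by a log2 fold change of -0.65 ± 0.25 (SE; limma p of 0.0405, adjusted p = 0.349). It was -0.41 without WT replicate 1 (limma p of 0.158) and -0.89 without WT replicate 2 (0.0152), and without either CD274-null library the p was also above 0.05. Pfkl was at 42.0 and 17.5 FPKM in WT and at 27 and 28.9 FPKM in CD274-null LICs, which lay between the WT values. Pfkp held 46.8% and 54.7% of the FPKM of the 3 genes in WT, against 41.9% and 36.7% in CD274-null LICs, again without overlap.

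**Figure D3:**
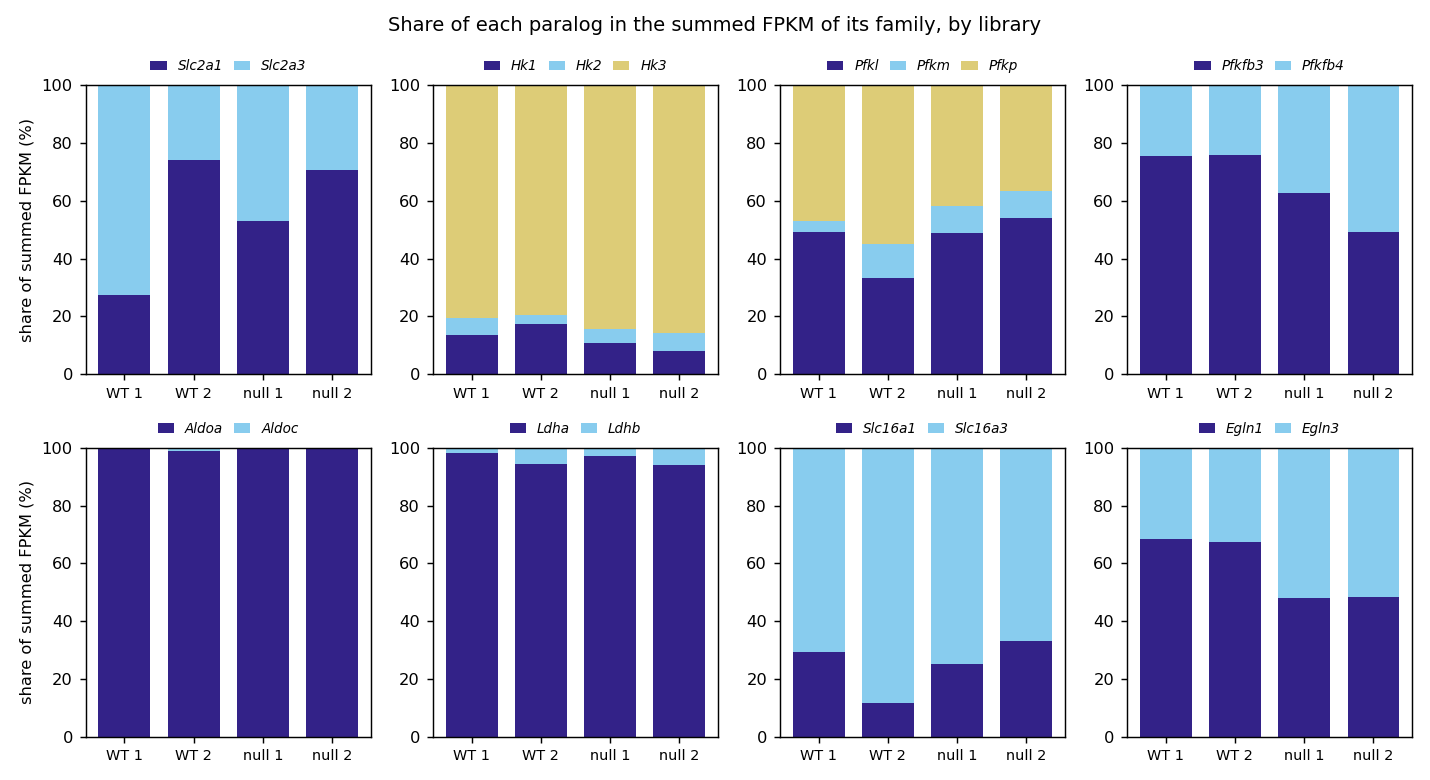
Share (%) of each paralog in the summed FPKM of its family, as stacked bars for the 4 libraries, in 8 families. Egln3 holds 31.6% and 32.6% in the WT bars against 52.0% and 51.7% in the CD274-null bars, and Aldoa at least 99.0% in all 4.

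Among the enzymes of the lower chain, pyruvate kinase and phosphoglycerate kinase had lower values in CD274-null LICs. Pkm (chr9:59656576-59679372), which encodes the M1 and M2 forms of pyruvate kinase, was at 508 and 539 FPKM in WT and at 342 and 354 FPKM in CD274-null LICs. Replicates were close together in both groups and the groups were far apart, with a log2 fold change of -0.59 ± 0.23 (SE; limma p of 0.0419, adjusted p = 0.349). The limma p of Pkm was 0.0669 with no filter, 0.0515 without trend and 0.073 with the replicate block. It was 0.00665 without moderation and 0.00848 with the GC correction, where the log2 fold change was -0.81. A single value per gene does not separate the M1 and M2 splice forms. Pgk1 (chrX:106187100-106203699), the first enzyme of the chain to return ATP, was at 40.3 and 33.4 FPKM in WT and at 24.5 and 21.2 FPKM in CD274-null LICs. Both CD274-null values were under both WT values, with a log2 fold change of -0.67 ± 0.22 (SE; limma p of 0.0225, adjusted p = 0.313).

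The remaining enzymes of the chain gave smaller differences. Gpi1 (glucose 6-phosphate isomerase) was at 538 and 549 FPKM in WT and 471 and 488 FPKM in CD274-null LICs, and Eno1 (enolase) at 127 and 117 against 101 and 103 FPKM. In both genes the CD274-null values lay under the WT values, with log2 fold changes of -0.18 and -0.25 that did not pass an unadjusted limma p of 0.05. Aldoa (aldolase A) was at 524 and 378 FPKM in WT and 448 and 427 FPKM in CD274-null LICs, and Tpi1 (triose phosphate isomerase) at 240.0 and 186 against 181 and 211 FPKM, with overlapping groups in both. The paralog Aldoc reached only 0.965 to 3.92 FPKM. Pgam1 (phosphoglycerate mutase) was at 32.4 and 32.1 FPKM in WT and 36 and 27.8 FPKM in CD274-null LICs, on either side of the WT values. Summed over the 15 enzymes of glycolysis, FPKM came to 2360 and 2140 in WT against 2030 and 2160 in CD274-null LICs, so the groups overlapped.

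Gapdh, the dehydrogenase that is often used as a reference gene, had a low value in this table. It was at 19.2 and 16.4 FPKM in WT and at 23.7 and 29.2 FPKM in CD274-null LICs, on the basis of 137, 103, 129 and 179 recovered reads. The CD274-null values were above the WT values, with a log2 fold change of 0.55 ± 0.23 (SE; limma p of 0.0550, adjusted p = 0.372). The enzyme before it, Tpi1, was at 181 to 240.0 FPKM, while the next in the chain, Pgk1 and Pgam1, were at 21.2 to 40.3 FPKM, near its own level, and Actb, another common reference, was between 1060 and 1660 FPKM. Gapdh has many processed pseudogenes, and 58.4% of the 50-base stretches of its mRNA also occur at another annotated locus. Of its 731 coding stretches of 50 bases, 0 were absent from all pseudogenes, and a stretch was found in a median of 40. The most shared stretch is printed because reads of the study's length that come from it match many loci. It lies in exon 4 on the minus strand (GRCm38) and was found in 81 of 215 pseudogenes.
Gapdh (chr6:125162898-125162947): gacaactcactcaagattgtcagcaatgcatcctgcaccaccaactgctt

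The same count was made for the other members, over protein-coding transcripts of GENCODE vM21. More than 40% of 50-base stretches were shared with another locus in Pgk1 (68.0%), Gapdh (58.4%), Eno1 (49.5%), Bnip3 (46.3%) and Pgam1 (41.5%), and more than 20% also in Ldhb (21%). That is 6 of 36 members over 20%, against 605 of 11435 tested genes with a value (5.29%). Hk3, Pfkp, Pfkfb4, Pgd, Rpia and Egln3 had 0% shared. How reads with several placements were treated is not given in the sources used here, so levels of the genes with shared stretches, Pgk1 and Gapdh among them, are uncertain. Pkm, whose stretches were 18.4% shared, and Gpi1, at 19.0%, carry the same doubt to a lesser degree. The processed copies Aldoart1, between 15.7 and 22.0 FPKM, and Eno1b, between 2.0 and 3.93 FPKM, were listed with reads of their own.

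**Figure D4:**
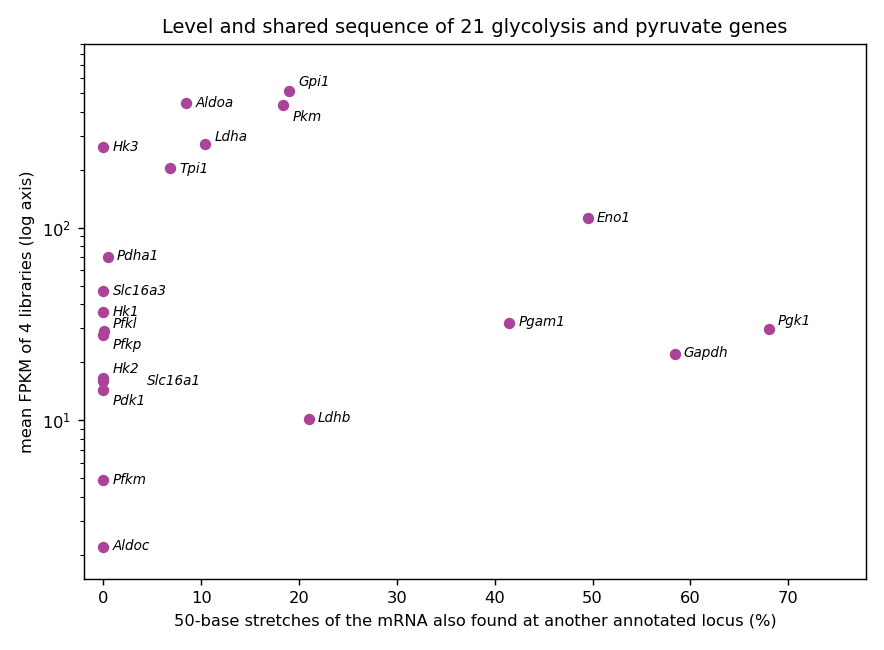
Mean FPKM of the 4 libraries on a log axis against the percentage of 50-base stretches of the mRNA found at another annotated locus, for 21 genes of glycolysis, lactate and pyruvate. Gapdh (58.4%) and Pgk1 (68.0%) are farthest to the right and lie below Eno1, Tpi1 and Pkm in level.

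Pyruvate can leave the chain as lactate or enter the mitochondrion, and none of the 6 members at this branch had an unadjusted limma p under 0.05. Ldha was at 395 and 242 FPKM in WT and at 252 and 195 FPKM in CD274-null LICs. CD274-null replicate 1 lay just above WT replicate 2, so the groups overlapped, and the log2 fold change was -0.48 ± 0.31 (SE; limma p of 0.168). It was -0.13 without WT replicate 1 (limma p of 0.658) and -0.84 without WT replicate 2 (0.0337). Ldhb, whose subunit favors the reverse reaction, held 1.68% to 6.01% of the FPKM of the pair. Of the lactate exporters, MCT4 (Slc16a3) was at 55.5 and 46.2 FPKM in WT and at 44.9 and 40.4 FPKM in CD274-null LICs. MCT1 (Slc16a1) was at 22.9 and 6.17 FPKM in WT and at 15.1 and 19.9 FPKM in CD274-null LICs, between the WT values. Without WT replicate 1 the log2 fold change of Slc16a1 moved from 0.52 to 1.42 (limma p of 0.00590), and without WT replicate 2 it turned to -0.39 (0.228). Pdk1, the kinase that shuts pyruvate dehydrogenase off, was at 19.6 and 14.7 FPKM in WT and at 15 and 7.92 FPKM in CD274-null LICs, and its target Pdha1 was at 69.1 and 87.0 against 74.3 and 52.0 FPKM. CD274-null replicate 2 was lowest in both of these genes, and CD274-null replicate 1 lay within the WT range.

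The pentose phosphate enzymes were all well expressed, and in 4 of 6 both CD274-null values stood above both WT values, as they did in 25.6% of all tested genes. Pgd (6-phosphogluconate dehydrogenase, which yields NADPH) was at 358 and 391 FPKM in WT and at 476 and 543 FPKM in CD274-null LICs. Taldo1 (transaldolase) was at 350.0 and 356 FPKM in WT and at 459 and 525 FPKM in CD274-null LICs. In both, the gap between groups was wider than the spread within either, and the log2 fold changes were 0.44 ± 0.24 and 0.48 ± 0.23 (SE), with limma p-values of 0.112 and 0.0873 that miss the threshold. Rpia (chr6:70765720-70792175), the isomerase that makes ribose 5-phosphate, was at 63.8 and 46.8 FPKM in WT and at 82.5 and 85.5 FPKM in CD274-null LICs. Its CD274-null values were close to each other and above both WT values, with a log2 fold change of 0.62 ± 0.23 (SE; limma p of 0.0358, adjusted p = 0.343). It was 0.84 without WT replicate 1 (limma p of 0.0105) and 0.39 without WT replicate 2 (0.129), and without either CD274-null library the p was also above 0.05. Pgls (6-phosphogluconolactonase) was at 111 and 104 FPKM in WT and at 127 and 126 FPKM in CD274-null LICs, a log2 fold change of 0.23 ± 0.20 (SE). With the GC correction the log2 fold change of Pgls was 0.02 (limma p of 0.923), while that of Pgd was 0.47. Tkt (transketolase), at 507 and 427 FPKM in WT and 437 and 473 FPKM in CD274-null LICs, overlapped between groups.

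G6pdx, the entry enzyme of the pathway, did not separate the groups. It was at 199 and 64.3 FPKM in WT and at 98.4 and 113 FPKM in CD274-null LICs, both between the WT values, with a log2 fold change of -0.10 ± 0.50 (SE). The 6 genes summed to 1590 and 1390 FPKM in WT and to 1680 and 1870 FPKM in CD274-null LICs. G6pdx, Pgk1 and Pdha1 lie on the X chromosome, and the libraries differed in sex-linked RNA. Xist was at 2.57 and 51.1 FPKM in WT and 107 and 68.7 FPKM in CD274-null LICs, and 4 Y genes summed to 86.0 and 66.2 against 0.046 and 29.4 FPKM. The part of this in the values of the 3 genes was not tested.

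Of the HIF members, Egln3 and Vegfa were higher in both CD274-null libraries. Egln3 (chr12:54178981-54203874), a prolyl hydroxylase that is itself a HIF target, was at 6.75 and 4.84 FPKM in WT and at 10.6 and 11.7 FPKM in CD274-null LICs. The CD274-null values were close to each other and above both WT values, with a log2 fold change of 0.90 ± 0.29 (SE; limma p of 0.0187, adjusted p = 0.303). Egln1, the main oxygen sensor of the family, was at 14.6 and 10 FPKM in WT and at 9.79 and 10.9 FPKM in CD274-null LICs. Egln3 held 31.6% and 32.6% of the FPKM of the pair in WT and 52.0% and 51.7% in CD274-null LICs. Vegfa (chr17:46016993-46032377), the angiogenic growth factor, was at 52.8 and 15.2 FPKM in WT and at 69.3 and 160.0 FPKM in CD274-null LICs. Its groups did not overlap, but the values spread widely within each, and the log2 fold change was 1.87 ± 0.63 (SE; limma p of 0.0245, adjusted p = 0.316). The size rested on single libraries. The log2 fold change was 2.75 (limma p of 0.00276) without WT replicate 1, 0.99 (0.109) without WT replicate 2, 2.47 (0.0586) without CD274-null replicate 1 and 1.27 (0.233) without CD274-null replicate 2. Hif1a, the regulated subunit of HIF, was at 43.6 and 17.6 FPKM in WT and at 19.9 and 16.5 FPKM in CD274-null LICs. WT replicate 1 stood apart from the other 3. The log2 fold change of Hif1a was -0.60, and it was 0.05 (limma p of 0.873) without WT replicate 1 and -1.24 (0.00431) without WT replicate 2. Bnip3 was at 9.06 and 5.15 FPKM in WT and 5.34 and 4.35 FPKM in CD274-null LICs, from 76 to 184 recovered reads.

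Several members differed widely between libraries of 1 group. Between WT replicates 1 and 2, 9 of 36 members differed over 2-fold (Slc2a1, Slc2a3, Pfkl, Aldoc, Ldhb, Slc16a1, G6pdx, Hif1a and Vegfa), which is 25.0% against 11.4% of all tested genes. Between the CD274-null libraries 2 did (Slc2a1 and Vegfa), which is 5.56% against 6.61%. In absolute log2 terms the median member differed by 0.42 between WT replicates and by 0.21 between CD274-null replicates, against 0.34 and 0.28 for all tested genes. Of the 9 members apart in WT, 7 were higher in WT replicate 1, the library with the highest summed neutrophil markers. In 5 members, Slc2a3, Pfkl, Slc16a1, G6pdx and Tkt, the FPKM ranked the 4 libraries in the same order as that neutrophil sum, which is 13.9% against 2.54% of all tested genes. The order of the sum is that of Ngp (5230 and 778 FPKM in WT, 1870 and 2600 FPKM in CD274-null LICs), while Camp and Ltf were highest in CD274-null replicate 2. This order of the members was looked for after the values were seen, and the part of neutrophil RNA in these values was not tested. The summed markers of other cell types also differed, with 313 and 402 FPKM of 10 B and plasma cell markers in CD274-null LICs against 31.0 and 59.3 FPKM in WT. For 6 macrophage markers the sums were 147 and 142 FPKM in WT and 89.3 and 105 FPKM in CD274-null LICs, a gap carried by Vcam1 (117 and 92.3 against 53.7 and 59.8 FPKM), while Adgre1 overlapped between groups. The sums over 5 markers of stroma and endothelium were 13.3 and 19.4 FPKM in WT and 24.9 and 51.8 FPKM in CD274-null LICs. Most of each sum came from Pecam1 (11.8 and 18.3 against 18.7 and 49.1 FPKM), which myeloid cells also express, while Cdh5 was at 0.0284 FPKM or less and Cxcl12 at 0.695 FPKM or less in every library. For 7 erythroid markers the sums were 3.06 and 55.8 FPKM in WT and 5.41 and 0.701 FPKM in CD274-null LICs, so WT replicate 2 stood apart. The 6 T cell markers summed to 3.31 FPKM or less in every library. The part of these cells in the values of the members was not tested.

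**Figure D5:**
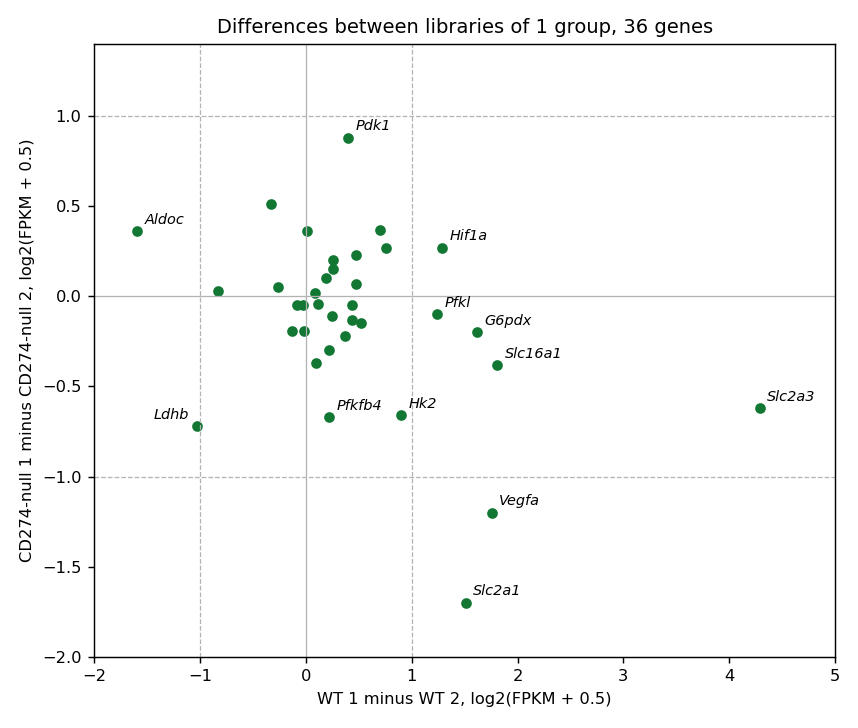
Differences in log2(FPKM + 0.5) of the 36 genes between libraries of 1 group, WT on the x axis and CD274-null on the y axis, with dashed lines at a 2-fold difference. Slc2a3 differs by 4.29 between the WT libraries, and Slc2a1 and Vegfa differ over 2-fold in both groups.

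A separate list held 84 further genes of the same pathways. Of these, 64 passed the filter on low values, 0 were called as higher and 2 as lower (3.12% against 3.63% of all genes), and at an unadjusted limma p under 0.05, 2 were higher (8.04% of all genes were) and 5 lower (5.7% of all genes were). Fbp1, fructose 1,6-bisphosphatase, which runs the phosphofructokinase step in reverse, was at 23.5 and 54.4 FPKM in WT and at 14.0 and 8.27 FPKM in CD274-null LICs. Both CD274-null values were below both WT values, with a log2 fold change of -1.69 ± 0.45 (SE; limma p of 0.00868, adjusted p = 0.274). That call was lost under 6 of 12 other settings (limma p 0.0102 to 0.136) and without 3 of the 4 libraries in turn, where the value ranged from -2.29 without WT replicate 1, which kept it, to -1.09 without WT replicate 2. Ero1l, an oxidase of the endoplasmic reticulum and a known HIF target, was at 53.6 and 54.9 FPKM in WT and at 34.1 and 30.9 FPKM in CD274-null LICs, with a log2 fold change of -0.73 ± 0.20 (SE; limma p of 0.00984, adjusted p = 0.274). Its call was lost under 6 of 12 other settings (limma p 0.0103 to 0.0352) and without any 1 library. The genes at an unadjusted limma p under 0.05 that were not called were G6pc3 (glucose 6-phosphatase, log2 fold change 0.68) and Rbks (ribokinase, 0.76) on the higher side. On the lower side they were Arrdc4 (a glucose-responsive arrestin, -0.95), Ddit4 (an mTOR inhibitor and HIF target, -1.40) and Dld (a pyruvate dehydrogenase subunit, -0.65). Among 18 tested HIF targets of this list the median log2 fold change was -0.02, and among 11 tested glycolysis genes it was -0.26. None of the 7 tested pentose phosphate genes of this list was called, and their median was -0.04.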

How the data were processed

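RNA of sorted LICs was sequenced in 2 WT and 2 CD274-null libraries (TruSeq v2, HiSeq2500 per the study's methods), and the authors deposited FPKM per NCBI gene number, with no log transformation. Per the submitters' processing notes, CASAVA 1.8.2 and TopHat2 2.0.12 were used with GRCm38. The program, gene lengths and strand setting behind FPKM are not given in the sources used here. Libraries were grouped by their labels and 0 columns were left unassigned. Symbols came from RefSeq (GRCm38.p6), for 25275 of 27179 genes, and older symbols from its synonyms.

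Whole reads were recovered from the ratios of FPKM between libraries (17083 genes detected in at least 2 libraries, 100% recovered, tolerance 0.02 reads), as lower bounds where the reads of a gene share a factor. Depth relative to WT replicate 1 was 0.880, 0.765 and 0.861 in WT replicate 2 and CD274-null replicates 1 and 2. With so few reads as Aldoc has (19 to 68), counting error alone is large.

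R 4.3.3 and limma 3.58.1 (lmFit, then eBayes with a mean-variance trend) were run on log2(FPKM + 0.5) where the mean FPKM reached 0.5, with Benjamini-Hochberg adjustment over 13230 genes and no covariate, and were tested on simulated data. Fold changes are on that log2 scale and understate low genes. All 36 members were named. The members and lists were chosen with earlier results of these data known. Alternatives were other pseudocounts (1 and 0.1), filters (none and 5), scalings, variance models, voom on recovered reads, a GC correction (loess, span 0.3), a replicate block and leaving out each library. Shared stretches are exact 50-base matches between protein-coding transcripts and other loci of GENCODE vM21. Python 3.11.15, pandas 2.3.3 and numpy 2.4.6 were used. 1 marker gene is not reported here.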

Additional observations from a re-analysis of the deposited data

How the results depend on the processing

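Of 574 log2 fold changes of members under 16 other settings, 35 took the opposite sign, in 16 of the 36 members. With all 4 libraries and the settings of the report, none of these 16 had an unadjusted limma p under 0.05, but without WT replicate 1 the reversed values of Slc2a3 (1.86, p of 0.00477) and G6pdx (0.71, p of 0.0251) did, and 20 members kept their direction in every setting run. Outside the leaving-out of libraries 10 values reversed. Hk1 (0.01) went to 0.00 with equal quantiles and with voom, to -0.02 with equal medians and to -0.18 with the GC correction, with or without the replicate block. Pfkfb3 (0.01) went to -0.01 and -0.02 with equal quantiles and equal medians, Aldoc (-0.06) to 0.00 with voom, and Pfkl (0.04) to -0.16 with the GC correction, with or without the block. Leaving out 1 library gave ranges that cross 0 for Slc2a1 (-0.44 to 1.26), Slc2a3 (-2.44 to 1.86), Hk1 (-0.12 to 0.13), Pfkl (-0.58 to 0.66), Pfkm (-0.27 to 0.56), Pfkfb3 (-0.09 to 0.10), Aldoa (-0.26 to 0.21), Aldoc (-0.86 to 0.73), Tpi1 (-0.29 to 0.07), Pgam1 (-0.21 to 0.16), Ldhb (-0.56 to 0.47), Slc16a1 (-0.39 to 1.42), G6pdx (-0.91 to 0.71), Tkt (-0.16 to 0.09), Hif1a (-1.24 to 0.05) and Egln1 (-0.48 to 0.04). The cause was not tested.

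The count of called members was 0, against 1, with no filter, equal quantiles, equal medians, eBayes without trend, voom, and the GC correction with the replicate block. It stayed at 1 without moderation and with the GC correction alone, where the called gene was Pkm in place of Pfkfb4, and ranged from 0 to 3 when 1 library was left out (3 without WT replicate 1, 2 without WT replicate 2). Members with an unadjusted limma p under 0.05 numbered 9, against 5 without trend, 4 without moderation and 0 to 10 without 1 library (2 without CD274-null replicate 1 and 0 without CD274-null replicate 2). Of the further pathway genes 2 were called, against 1 with a pseudocount of 0.1, no filter, a filter at 5, equal quantiles, equal medians, voom or the GC correction, 0 without trend, and 0 to 3 without 1 library. The median log2 fold change of the members went from -0.03 to -0.16 with the GC correction, and their median GC content was 52.6% against 49.8% over all tested genes.

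The deviations of same-numbered libraries from their group means had a correlation of -0.0151 over 13230 genes. That value shows no pairing by replicate number but does not exclude one, since opposite differences between libraries can cancel. Over all genes the replicate block moved the number called from 480 to 526. Genes at an adjusted limma p under 0.05 went from 10 to 21. With the replicate block 1 member and 2 further pathway genes were called, the latter not the same 2, since Ero1l was lost (limma p of 0.0160) and Ddit4 gained, and 8 members had an unadjusted limma p under 0.05. A leave-out fit holds 1 group at 1 library, which is assumed to vary like the other group. Depth limits Aldoc and Bnip3, the members with the fewest recovered reads.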
